A study of Rattus norvegicus with 30 samples.

Results

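The genes described here are markers of the subfields of the rat hippocampus, and the question they address is how much hippocampal RNA the brain libraries of the study hold and whether it differs between its groups. The list has 10 genes, chosen by gene symbol: Prox1, C1ql2, Dsp, Tdo2 and Lct for granule cells of the dentate gyrus, Neurod6, Wfs1 and Fibcd1 for pyramidal cells of the CA fields, and Zbtb20 and Calb1, which mark both. Of the 10, 8 have a row by symbol among the 17134 genes of the table, and Tdo2 and Lct were not analysed here. The libraries come from 30 male rats on a normal diet, in 3 groups of 10. HIP rats express amyloid-forming human amylin in the β-cells of the pancreas and develop diabetes, so that the transgene is not a change made in the brain itself. WT rats carry only rat amylin, which does not form amyloid, and AKO rats lack amylin. By the methods, HIP and WT rats were 15 to 16 months old, as were a few AKO rats used as negative controls. The methods give a younger age for AKO rats injected with human amylin. The age of the 10 sequenced AKO rats is not given separately, so an age difference cannot be told apart from genotype where AKO rats are compared. The tissue is called frontal cortex in the labels, cerebral cortex in the methods and hippocampus in the results of the paper, and these names were read against the markers below.

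In the hippocampus, information runs from the granule cells of the dentate gyrus through the pyramidal cells of CA3 to those of CA1. Prox1 is a homeobox transcription factor that keeps granule cells in their identity, C1ql2 is a secreted synaptic protein of their mossy fibre axons, and Dsp is desmoplakin, a protein of cell junctions. Neurod6 is a basic helix-loop-helix transcription factor of excitatory forebrain neurons, Wfs1 is wolframin of the endoplasmic reticulum, and Fibcd1 is a membrane receptor with a fibrinogen domain. Zbtb20 is a zinc finger repressor needed for hippocampal identity, and Calb1 is the calcium buffer calbindin. Few of these genes are restricted to the hippocampus. Prox1 is also known in interneurons of the caudal ganglionic eminence, Neurod6, Wfs1 and Calb1 in neocortical neurons, Calb1 also in Purkinje cells of the cerebellum, and Zbtb20 in astrocytes.

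The 250 bases before the start of 2 of these genes are shown, Neurod6 because it was the one marker that differed between HIP and WT rats by an unadjusted p-value, and C1ql2 because its level spread the most between rats relative to its mean. The sequences are those of RefSeq on the rat assembly GRCr8, in which 5 of the 8 genes had an entry, and each is written 5′ to 3′ on the strand of its gene. Capitals mark matches to CANNTG, the E-box to which basic helix-loop-helix factors bind. The Neurod6 window is chr4:86180156-86180405 on the minus strand and the C1ql2 window is chr13:34023652-34023901 on the plus strand.
Neurod6: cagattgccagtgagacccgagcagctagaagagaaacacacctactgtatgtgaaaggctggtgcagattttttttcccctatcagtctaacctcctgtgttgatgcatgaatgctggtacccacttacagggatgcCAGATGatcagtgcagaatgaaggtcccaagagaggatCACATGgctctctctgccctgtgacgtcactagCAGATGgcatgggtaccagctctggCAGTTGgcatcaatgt
C1ql2: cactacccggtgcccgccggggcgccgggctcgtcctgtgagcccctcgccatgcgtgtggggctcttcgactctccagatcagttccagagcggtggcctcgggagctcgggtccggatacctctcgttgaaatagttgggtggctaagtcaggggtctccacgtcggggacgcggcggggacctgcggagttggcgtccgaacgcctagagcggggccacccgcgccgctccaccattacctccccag
The Neurod6 window holds 4 matches, of which 2 read CAGATG. The C1ql2 and Fibcd1 windows hold 0 matches, and the Dsp and Wfs1 windows hold 1 each. The motif is its own reverse complement, so both strands are covered, and 65.5% of 33469 windows of the same length hold at least 1. CAGATG, searched on both strands and a case of CANNTG, is held by 14.0% of them. These matches describe the letters of the windows and no binding was measured.

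Values are normalized counts, in which reads were scaled between libraries but not by transcript length, so levels are compared between rats and not between genes. The estimated depth was 12.9 to 23.6 M reads per rat. Libraries that stand apart touch many of the values below. In the WT rat 10RT43 the mean of 4 cerebellar genes (Gabra6, Cbln3, Fat2 and Pcp2) was 13.14 on the log2(normalized count + 1) scale, and in the HIP rat 12RT23 it was 9.84, against 1.17 to 2.93 in the other 28 rats. In 10RT43 all 4 of these genes were at their highest, and of the neocortical genes Tbr1 was at 16.7 normalized counts, Fezf2 was at 0 and 9 of 13 were at their lowest of the 30 rats. Others of the 13 went the other way there: Etv1 was at its highest (10257 against a median of 1490), and Cux1 and Nxph4 were each at rank 2 from the highest. In the HIP rat 10RT46 all 5 pineal genes and all 6 choroid plexus genes were at their highest, with list means of 10.28 and 9.09, against 0.85 to 2.42 and 1.26 to 7.04 in the other rats. The pineal genes Aipl1 and Crx had a median of 0 over the 30 rats. Whether RNA of these tissues has a part in the levels of the hippocampal markers was not tested, and results that rest on these rats are given with and without them.

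Among the dentate gyrus markers, Prox1 was found in every rat. It was at 23.7 normalized counts in the lowest WT rat, at a median of 38.9 and at 237 in the highest. In HIP rats it ran from 30.8 over a median of 47.03 to 80.1, and in AKO rats from 12.1 over a median of 37.4 to 60.5. The ranges of the 3 groups overlapped. The top of the WT range was set by 10RT43 and that of the HIP range by 12RT23, the same rats that held the cerebellar genes. Without 10RT43 the WT mean fell from 58.8 ± 63.1 (SD, n = 10) to 39.05 ± 8.65 (SD, n = 9).

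C1ql2 had the widest spread relative to its mean, with a coefficient of variation of 167% over the 30 rats, where counting error alone would give 15.5%. In WT rats it ran from 7.18 over a median of 19.3 to 73.1 normalized counts. In HIP rats it ran from 6.46 over a median of 14.8 to 372, and in AKO rats from 8.72 over a median of 33.9 to 98.9. The value of 372 belonged to 10RT46, and it stood 17.3-fold above the median of the other 29 rats, of which the highest was at 98.9. Without 10RT46 the HIP mean went from 56.9 ± 112 (SD, n = 10) to 21.85 ± 19.48 (SD, n = 9). In bulk tissue, more cells of a type and more RNA per cell cannot be told apart.

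Dsp was the lowest in estimated reads, with between 2 and 57 reads per rat. It ran from 8.37 over a median of 27.8 to 56.3 normalized counts in WT rats. It ran from 7.71 over a median of 23.5 to 51.7 in HIP rats, and from 2.43 over a median of 24.5 to 60.0 in AKO rats. Its low end in AKO rats was the single rat 6KAH98, and the other 9 AKO rats were at 16.3 or more. The coefficient of variation over all rats was 49.9%, against 19.2% from counting alone.

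Among the CA markers, Neurod6 varied least of the 8 genes, with a coefficient of variation of 23.8%. It ran from 851 over a median of 1093 to 1527 normalized counts in WT rats. In HIP rats it ran from 1077 over a median of 1393 to 1995, and in AKO rats from 808 over a median of 1125 to 1585. The HIP range lay higher than the others at its low end, its median and its high end, but overlapped both. The 2 highest HIP rats were 10RT46 and 12RT23. In 10RT43, where the neocortical genes Tbr1 and Fezf2 were at 16.7 and 0, Neurod6 was still at 851.

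Wfs1 was at 360 in 10RT43 and between 1628 and 6080 in the other 29 rats, with a median of 3107 normalized counts over all rats. Group medians were 3292 in WT, 2967 in HIP and 3218 in AKO rats. The highest value, 6080, was that of the AKO rat 7AKO19, in which the mean of the choroid plexus list was 7.04.

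Fibcd1 was at 2.39 normalized counts in 10RT43, which is about 2 reads. The other 9 WT rats ran from 177 to 451, around a group median of 230. HIP rats ran from 180 over a median of 224 to 748, and AKO rats from 79.5 over a median of 265 to 676. The 2 highest rats were 10RT46 and 7AKO19, those with the highest choroid plexus lists. The lowest AKO rat was 4KAH27, in which the mean of a list of 9 striatal genes was 10.43, the highest of the 30 rats and level with the WT rat 10RT55 at that rounding.

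Of the genes that mark both fields, Zbtb20 ran from 36.9 over a median of 61.5 to 133.6 normalized counts in WT rats. It ran from 28.6 over a median of 53.2 to 174 in HIP rats and from 30.4 over a median of 61.3 to 147.3 in AKO rats. The 3 groups covered almost the same range. Calb1 ran from 960 over a median of 1467 to 9256 in WT rats, from 639 over a median of 1347 to 2421 in HIP rats, and from 901 over a median of 1411 to 1683 in AKO rats. Its highest values were those of 10RT43 and 12RT23, and its lowest was that of 10RT46.

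**Figure D1:**
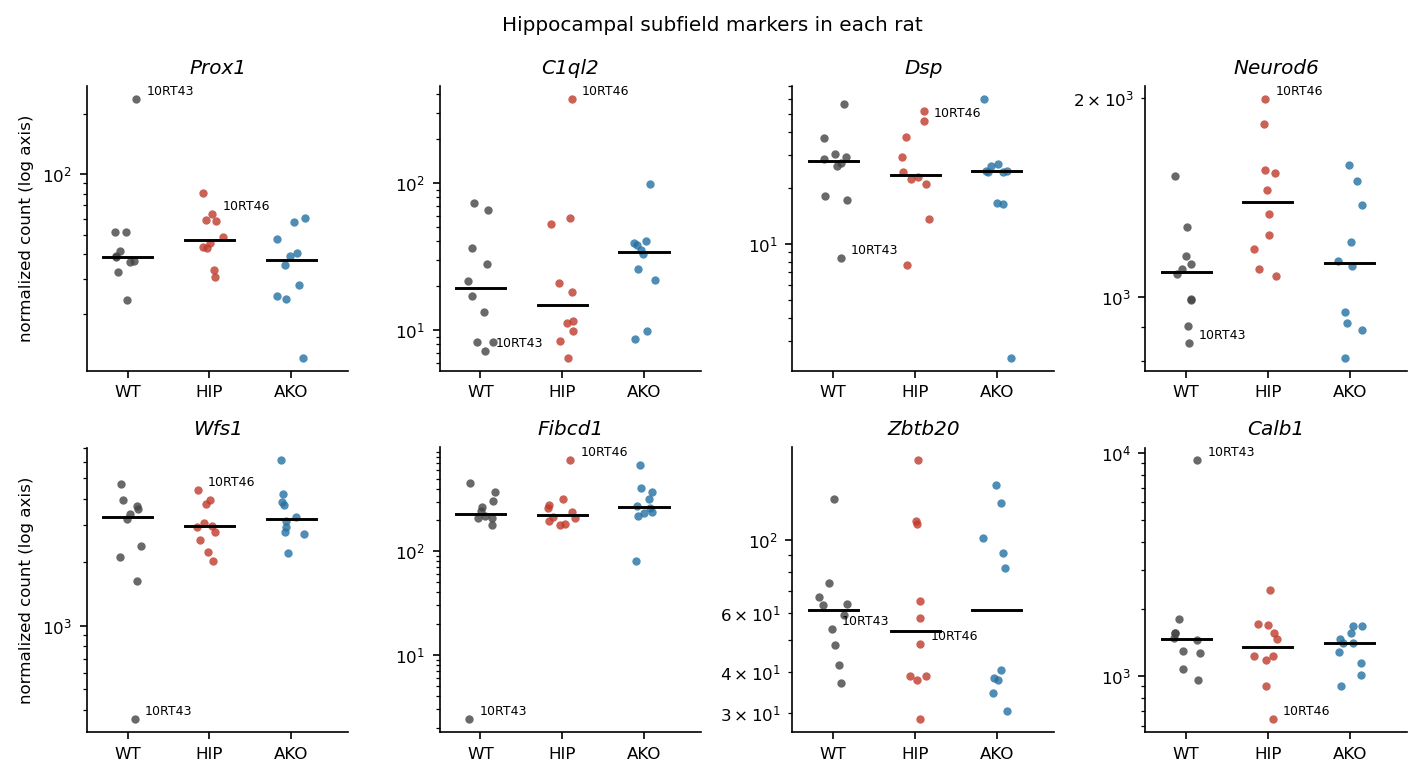
Normalized counts of the 8 markers on a log axis, 1 panel per gene and 1 point per rat, with WT, HIP and AKO rats side by side and a black line at the median of each group. The rats 10RT43 and 10RT46 are labelled: 10RT43 sits alone at 237 for Prox1, 360 for Wfs1, 2.39 for Fibcd1 and 9256 for Calb1, and 10RT46 sits alone at 372 for C1ql2.

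The rat 10RT46 was the highest of 30 in C1ql2, Fibcd1 and Neurod6, the third highest in Prox1 and Wfs1 and the fourth highest in Dsp, and the lowest in Calb1. Calb1, although known to be strong in granule cells, thus lay opposite to the dentate gyrus markers in this rat. Of 7 other genes known in granule cells (Plk5, Stxbp6, Glis3, Dock10, Cyp7b1, Il16 and Smad3), 0 were at their highest in 10RT46 and 5 were above their median. Pou3f1, a transcription factor of CA1, was at its highest there at 756 normalized counts, and so was Grik4, a kainate receptor subunit of CA3, at 612. Both were picked out after their values were seen: of the whole lists, 2 of 5 CA1 genes, 1 of 4 CA2 genes and 3 of 4 CA3 genes were above their median in 10RT46, and 1, 0 and 1 were at their highest. Of 13 neocortical genes 2 were above their median in 10RT46. Of 6 oligodendrocyte genes 5 were at their highest there, Mbp at 90023 normalized counts.

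**Figure D2:**
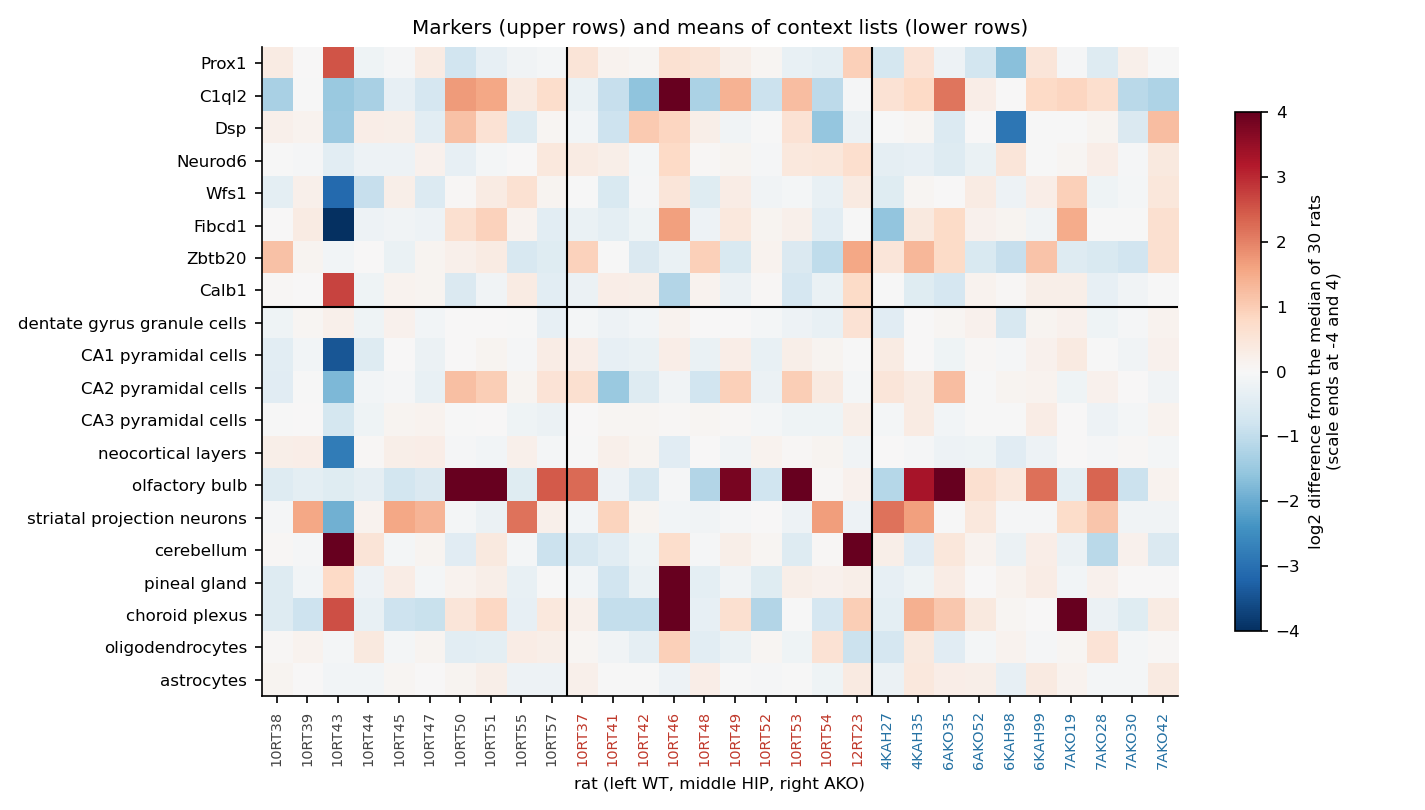
Each rat is a column (WT left, HIP middle, AKO right) and the colour gives the log2 difference from the median of the 30 rats, for the 8 markers in the upper rows and for the means of 12 context lists in the lower rows. The columns of 10RT43, 10RT46 and 12RT23 stand apart, and the olfactory bulb row is raised in 10 rats spread over the 3 groups.

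C1ql2 also moved with genes of the olfactory bulb. Over the 30 rats r with their mean was 0.61 (permutation adjusted p = 0.0084 over 120 relations, rho = 0.68, adjusted p = 0.0027). Without 10RT43 and 10RT46 r was 0.81 (permutation adjusted p = 0.00060). The bulb list was not alone in this. Over all rats r was 0.62 with choroid plexus, 0.61 with pineal and 0.57 with thalamus genes (permutation adjusted p = 0.012, 0.022 and 0.012). Without 10RT43 and 10RT46 these were 0.52, 0.50 and 0.47. With the CA1 list rho was 0.64 (permutation adjusted p = 0.0038) and r was 0.41 (adjusted p = 0.10). That r was 0.56 without 10RT43 and 10RT46 (permutation adjusted p = 0.017). The mean of Eomes, Tbx21, Doc2g, Cdhr1 and Th, markers of bulb projection and dopaminergic neurons, left a gap between 5.56 and 7.12 on the log2 scale. Above it were 10 rats (3 WT, 3 HIP and 4 AKO) and below it 20. Above the gap, C1ql2 ran from 18.0 over a median of 45.5 to 98.9 normalized counts, and below it from 6.46 over a median of 12.5 to 372, with 10RT46 at the top and 40.3 as the next value. Among the 10 rats above the gap, C1ql2 rose with the list mean (Pearson r = 0.87, permutation p = 0.00031, adjusted p = 0.0034, Spearman rho = 0.87, permutation p = 0.0021, adjusted p = 0.017), and r was 0.91 without the 2 rats farthest from the median. Below the gap r was 0.24 (permutation p = 0.32, adjusted p = 0.46, rho = 0.25, permutation p = 0.29). The list mean spanned less there, 3.74 to 5.56 against 7.12 to 9.91 above the gap.

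Fibcd1 gave the same picture above the gap, with r = 0.93 (permutation p = 0.00043, adjusted p = 0.0034, rho = 0.87, permutation p = 0.0022, adjusted p = 0.017) and 0.90 without the 2 farthest rats. Below the gap its r was 0.21 (permutation p = 0.37, adjusted p = 0.46). Adjusted p-values are over 16 relations, 8 genes on 2 sides of the gap. For the other 6 markers neither side passed the adjusted threshold. The gap was drawn after the values were seen, and the part of bulb tissue in these levels was not tested.

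**Figure D3:**
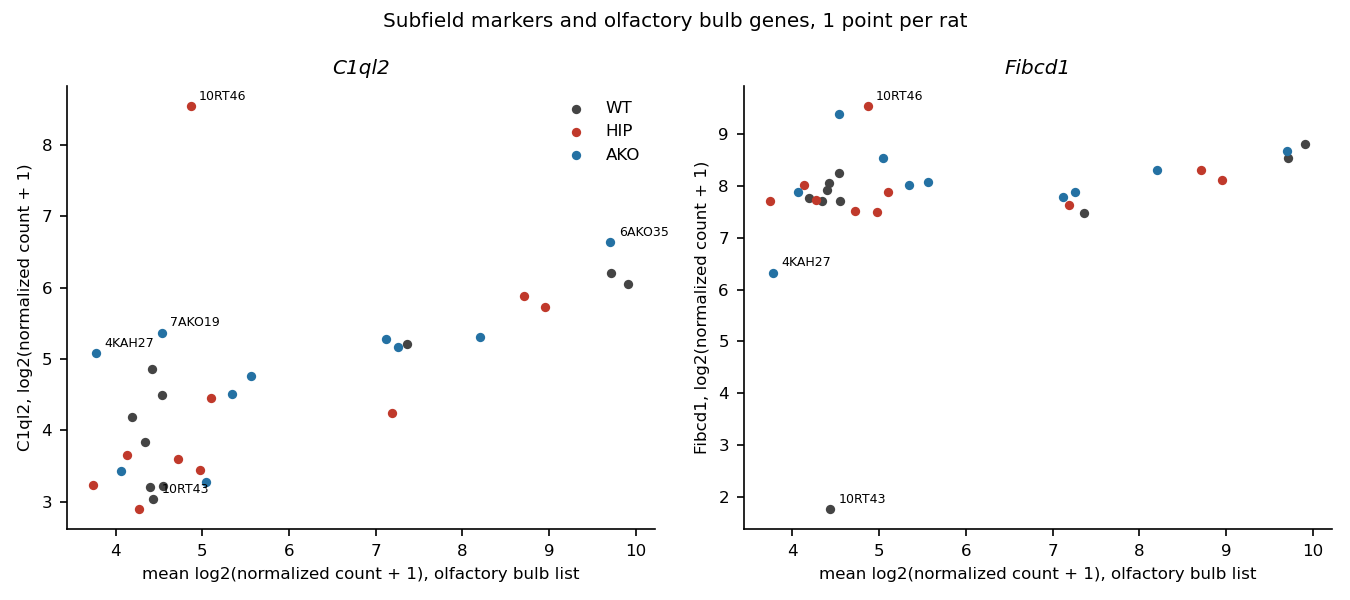
Level of C1ql2 (left) and Fibcd1 (right) on the log2(normalized count + 1) scale against the mean of 5 olfactory bulb genes on the same scale, 1 point per rat coloured by group. C1ql2 climbs across the 10 rats right of the gap, while 10RT46 lies far above the other rats to the left of it, and for Fibcd1 10RT43 lies far below.

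Between the markers themselves, 2 of 28 pairs were related across the 30 rats by Pearson's r with an adjusted p-value under 0.05, on log2(normalized count + 1). Wfs1 and Fibcd1 went together (r = 0.90, permutation p = 2.0e-05, adjusted p = 0.00056, rho = 0.67, permutation p = 6.0e-05), and r was 0.63 without 10RT43 and 10RT46 and 0.57 without the 2 rats farthest from the median of Wfs1. Within groups their r was 0.92 in WT, 0.73 in HIP and 0.81 in AKO rats. Fibcd1 and Calb1 went opposite ways (r = -0.81, permutation p = 0.0011, adjusted p = 0.015, rho = -0.34, permutation p = 0.069), but r was -0.15 without 10RT43 and 10RT46, so that this relation rested on those 2 rats. Without those rats the pairs that passed were Wfs1 with Fibcd1 (adjusted p = 0.011) and Prox1 with Zbtb20 (r = 0.59, adjusted p = 0.011). Of the rats kept, 12RT23 was the highest in both Prox1 and Zbtb20. With all 10 rats of each group, r of Prox1 with Zbtb20 was -0.02 in WT, 0.81 in HIP and 0.62 in AKO rats. By Spearman's rho 4 pairs passed over all rats: Wfs1 with Fibcd1, C1ql2 with Fibcd1 (rho = 0.63, adjusted p = 0.0045), C1ql2 with Wfs1 (rho = 0.54, adjusted p = 0.021) and C1ql2 with Calb1 (rho = -0.53, adjusted p = 0.021). No pair of dentate gyrus markers passed by r or rho over all rats. Prox1 and C1ql2 had r = -0.20 (permutation p = 0.27, rho = -0.27, permutation p = 0.15), Prox1 and Dsp had r = 0.05 (permutation p = 0.77, rho = -0.10, permutation p = 0.59), and C1ql2 and Dsp had r = 0.23 (permutation p = 0.21, rho = 0.11, permutation p = 0.55).

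Of 120 relations between a marker and the mean of a context list, 22 passed the adjusted threshold by r over all rats, 11 by rho, 22 by r without 10RT43 and 10RT46, and 26 by r on values centred on the group means. Zbtb20 rose with the mean of 7 astrocyte genes (r = 0.72, adjusted p = 0.0012, rho = 0.67, adjusted p = 0.0027, both from permutations), with r = 0.65 without the 2 rats farthest from the median, and with 0.70 in WT, 0.89 in HIP and 0.66 in AKO rats. Wfs1 rose with the mean of 5 CA1 genes, among them Pou3f1, Mpped1 and Crym (r = 0.89, adjusted p = 0.0012, rho = 0.58, adjusted p = 0.013), with 0.54 without the 2 farthest rats. Without 10RT43 and 10RT46 the relation was not particular to CA1. There r of Wfs1 was 0.60 with the CA1 list and 0.62 with the choroid plexus list (permutation adjusted p = 0.0084 for both). Over all rats r with the choroid plexus list was 0.12 (permutation adjusted p = 0.62), and -0.31 without 10RT46 and 7AKO19. Within groups it was -0.68 in WT, 0.71 in HIP and 0.78 in AKO rats. With the granule cell list r of Wfs1 was 0.56 without 10RT43 and 10RT46 (permutation adjusted p = 0.017). Over all rats it was 0.16 (permutation adjusted p = 0.52), with rho of 0.60 (adjusted p = 0.011). Prox1 rose with the 7 granule cell genes (r = 0.57, adjusted p = 0.022, rho = 0.40, adjusted p = 0.14). Without the 2 rats farthest from the median, 12RT23 and 6KAH98, r was 0.37. The mean of the 7 genes was highest in 12RT23 (8.78) and next highest in 10RT43 (8.40). These 2 rats were also the highest in Prox1 and in the cerebellar list. In 10RT43 Il16 and Plk5 were at their highest of the 30 rats, and Stxbp6 and Glis3 at their lowest. The part of cerebellar RNA in this relation was not tested. Without 10RT43 and 10RT46, which keeps 12RT23, r of Prox1 was 0.59 with the 7 granule cell genes and 0.55 with the astrocyte list (permutation adjusted p = 0.016 for both). It was 0.51 with the CA3 list and 0.49 with the caudal ganglionic eminence interneuron list (permutation adjusted p = 0.034 and 0.045). The cerebellar list separates 10RT43 and 12RT23 from the other 28 rats, in which its r was 0.15 with Prox1 and -0.04 with Calb1.

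The genes most alike to each marker were sought by Spearman's rho over the 30 rats among 13711 genes, as a description. For C1ql2 they were Htr5b, a serotonin receptor (rho = 0.91), Mlf1 (0.86) and Cacna1h, a T-type calcium channel (0.85), and Htr5b was also at its highest in 10RT46, at 80.5 normalized counts against a median of 4.68. For Neurod6 they were Vxn (0.82), Fezf2, a transcription factor of deep neocortical layers (0.79), and P2ry4 (0.77). For Wfs1 they were Glis3 (0.80), Kctd4 (0.77) and Gldc (0.75), and for Calb1 Bhlhe22, another basic helix-loop-helix factor (0.82), and Rundc3b (0.77). For Zbtb20 they were Traf6 (0.81), Ston2 (0.80) and Slc7a2 (0.78). Prox1 was most like Fam135b (0.77), Clmn (0.73) and Lurap1 (0.73), Fibcd1 most like Iqck (0.73), Sfrp2 (0.72) and Slc43a3 (0.71), and Dsp was like Stra6 (0.60) and Inppl1 (0.59). Without 10RT43 and 10RT46, Htr5b, Vxn, Ston2 and Bhlhe22 were at rank 1 for their markers. Others fell: in the order named, the Prox1 genes ranked 5, 18 and 87 and the Fibcd1 genes 26, 41 and 30. Mlf1 and Cacna1h ranked 13 and 23, Stra6 and Inppl1 12 and 14, and Kctd4 16.

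In HIP vs. WT rats, which asks whether pancreatic human amylin goes with a change of these markers, 1 of 8 genes passed an unadjusted p-value of 0.05 in limma, where 2.57% of 17085 genes did, and 0 of 8 passed after adjustment over all genes, as did 0% of all genes (smallest adjusted p = 0.999). The gene was Neurod6, at 1431 ± 306 normalized counts in HIP and 1100 ± 195 in WT rats (mean ± SD, n = 10 each). Its log2 fold change was 0.37 (SE 0.12, 95% confidence interval 0.13 to 0.61, limma unadjusted p = 0.0047, adjusted p = 0.999), a 1.29-fold higher level, and 9 of 10 HIP rats were above the WT median. A permutation test of the rats gave p = 0.0079. It stayed under 0.05 when each rat in turn was left out (limma unadjusted p from 0.0011 to 0.0105). Without 10RT43, 10RT46 and 12RT23 the log2 fold change was 0.22 (unadjusted p = 0.037, adjusted p = 0.9997), and over the alternatives that kept all rats the adjusted p ran from 0.993 to 0.9999. With rats left out it was 0.891 or more.

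The other 7 markers differed by less than the spread between rats in HIP vs. WT. C1ql2 had a log2 fold change of 0.14 (95% confidence interval -1.13 to 1.41), which was -0.30 without 10RT46. Fibcd1 had 0.59 (-0.70 to 1.88), which was -0.03 without 10RT43, and Wfs1 had 0.29 (-0.41 to 0.98), which was -0.02 without 10RT43. Prox1 had 0.08 (-0.52 to 0.69), which was 0.34 without 10RT43 (unadjusted p = 0.059), and Dsp had -0.04 (-0.70 to 0.61), which was -0.21. Zbtb20 had 0.01 (-0.60 to 0.61), and Calb1 had -0.32 (-0.96 to 0.33), which was -0.041 without 10RT43. These intervals leave room for a change of 1.5-fold in either direction or in one of them.

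AKO and WT rats differ by the loss of amylin, and whether they also differ in age is not given. In AKO vs. WT, 0 of 8 markers passed the unadjusted p-value of 0.05, in limma or in permutation tests of the rats. In limma 9.34% of 17058 genes passed it. After adjustment 0 of 8 markers passed, where 0.0997% of genes did. The largest log2 fold change was that of Fibcd1 at 0.69 (95% confidence interval -0.63 to 2.01, unadjusted p = 0.29), and it was 0.06 without 10RT43. Wfs1 had 0.46 (-0.24 to 1.16) and C1ql2 0.46 (-0.48 to 1.39). Prox1 had -0.43 (-1.12 to 0.26) and Calb1 -0.31 (-0.90 to 0.28). Without 10RT43 these were 0.15 for Wfs1, 0.30 for C1ql2, -0.17 for Prox1 and -0.035 for Calb1. Neurod6 had 0.05 (-0.22 to 0.31), the narrowest interval of the 8.

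In HIP vs. AKO rats, 2 of 8 markers passed the unadjusted p-value of 0.05, where 12.7% of 17092 genes did, and 0 of 8 the adjusted one, where 0.17% of genes did. Neurod6 had a log2 fold change of 0.32 (SE 0.13, limma unadjusted p = 0.023, adjusted p = 0.32, permutation p = 0.037), with AKO rats at 1148 ± 269 normalized counts (SD, n = 10) and 8 of 10 HIP rats above the AKO median. Prox1 was at 50.5 ± 14.9 in HIP and 36.9 ± 15.3 in AKO rats (SD, n = 10 each), a log2 fold change of 0.51 (SE 0.24, limma unadjusted p = 0.043, adjusted p = 0.38, permutation p = 0.0497), with 8 of 10 HIP rats above the AKO median. The Prox1 p-value passed 0.05 in only 10 of the 20 fits that left out 1 rat, and was 0.091 without the AKO rat 6KAH98. Without 10RT46 and 12RT23, which are the HIP rats with pineal and cerebellar genes, neither gene passed (unadjusted p = 0.11 for Neurod6 and 0.14 for Prox1). The HIP rats are shared by this comparison and by HIP vs. WT, so the Neurod6 values are not independent of each other.

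**Figure D4:**
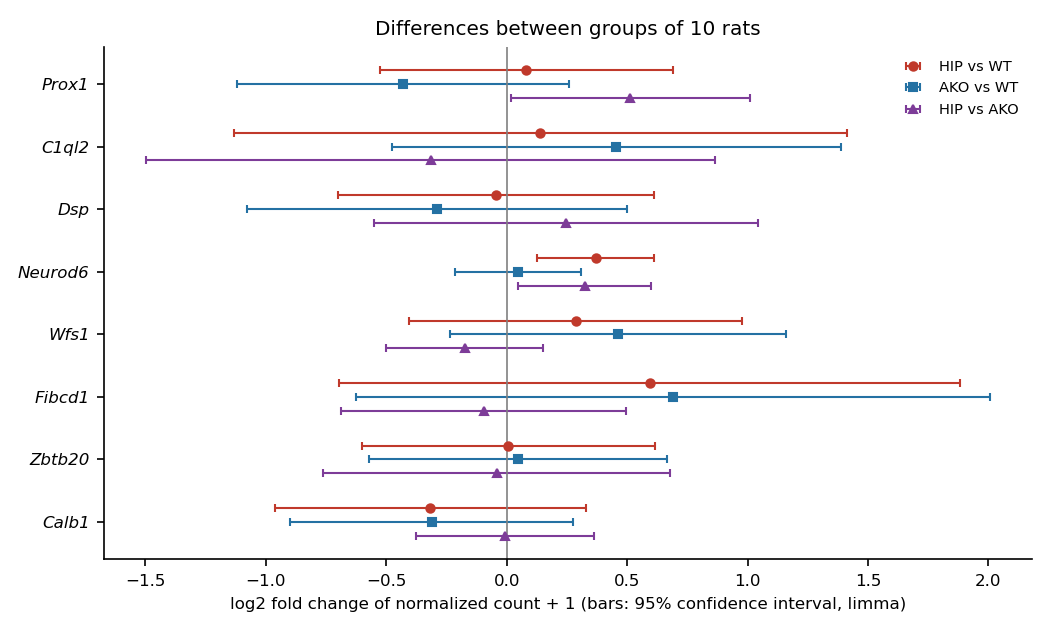
Log2 fold change of each marker in HIP vs. WT (circles), AKO vs. WT (squares) and HIP vs. AKO (triangles), with 95% confidence intervals from limma and a grey line at 0. The intervals of Neurod6 in HIP vs. WT and HIP vs. AKO and of Prox1 in HIP vs. AKO exclude 0, and those of C1ql2 and Fibcd1 are the widest.

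The other genes of the same fields were read from lists. Of the 7 granule cell genes, 0 passed an unadjusted p-value of 0.05 in HIP vs. WT, 1 was higher in AKO vs. WT (Glis3, unadjusted p = 0.043), and 0 passed in HIP vs. AKO. Their median log2 fold changes were 0.04, 0.01 and 0.05. Of 5 CA1 genes, 0, 1 and 0 passed in the same order, the one being Crym, higher in AKO rats (unadjusted p = 0.038). Of 4 CA2 genes, Pcp4 was lower in HIP vs. WT (unadjusted p = 0.049) and Rgs14 in HIP vs. AKO (unadjusted p = 0.023). Of 4 CA3 genes, 0 passed in any comparison. Of all genes, 2.57% passed the unadjusted p-value in HIP vs. WT, 9.34% in AKO vs. WT and 12.7% in HIP vs. AKO, so that 1 of these 20 genes in HIP vs. WT, 2 in AKO vs. WT and 1 in HIP vs. AKO passed. Without 10RT43, in which Pcp4 was at its highest and Glis3 and Crym at their lowest, none of these 3 passed (limma unadjusted p = 0.096, 0.066 and 0.054), and Rgs14 passed in AKO vs. WT (unadjusted p = 0.031). Without 10RT46 and 12RT23, Rgs14 did not pass in HIP vs. AKO (unadjusted p = 0.058). After adjustment over all genes, 0 of the 20 genes passed in limma. Over all genes the median log2 fold change was between 0.0014 and 0.0047 in the 3 comparisons.

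Set against the 3 names of the tissue, the neocortical list had a mean of 9.18 to 9.91 on the log2 scale in 29 rats, with Tbr1 at a median of 2555 normalized counts, and 6.84 in 10RT43. All 8 hippocampal markers with a row were found in all 30 rats, but Dsp in 6KAH98 and Fibcd1 in 10RT43 with only about 2 reads. These counts give no share of hippocampal tissue, because no library of pure hippocampus or pure cortex stands beside them.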

How the data were processed

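RNA of the 30 brains was sequenced by the authors, aligned to the rat genome rn7 with STAR 2.7.8a in Partek Flow (build 10.0.22.0228), counted on Ensembl105 genes and scaled with the size factors of DESeq2. What the authors deposited is thus a signal in units of scaled counts, most of it not whole. Between 81.7% and 85.8% of the values under 30 were whole multiples of 1 read (tolerance 0.01 of a read), so whole reads were not recovered and no count test was run. Estimated reads are the value divided by that of 1 read. Each group had 10 rats, taken from the labels, which name separate animals.

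Groups were compared with limma 3.58.1 (lmFit, eBayes with trend, two-sided, R 4.3.3) on log2(normalized count + 1), over genes with a mean of at least 1, with Benjamini-Hochberg adjustment over all of them. The fold changes are on that scale, which understates changes of low genes. The fit was tested on simulated data. Correlations used 100000 permutations (scipy 1.17.1). The markers, context lists and tests were chosen with earlier results of these data known. Named genes are the markers, genes of the context lists, and for each marker the 3 genes of mean 10 or more with the highest rho, of which some are not reported here. Pseudocount, filter, scaling, fit and rats were varied.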

Additional observations from a re-analysis of the deposited data

Results flagged for a closer look

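A rat was marked where it stood further from its nearest neighbour among the 10 of its group, relative to their whole range, than the 95% limit of Dixon's test allows. Of 69 groups of values examined, 22 held such a rat, where chance marks about 1 in 20, or 3.45. Of the 24 groups of marker values, 8 did, where chance marks 1.2. The groups share the same rats, and 10RT43 and 10RT46 were known beforehand to stand apart. These counts are thus a description and no test against chance. The rat 10RT43 accounted for 10 of the 22, 10RT46 for 5, and 12RT23 and 6KAH98 for 2 each.

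Among the markers, 10RT43 was far from the other WT rats in Prox1 (237 normalized counts), Wfs1 (360), Fibcd1 (2.39) and Calb1 (9256). The HIP rat 10RT46 was far above its group in C1ql2 (372) and Fibcd1 (748). The AKO rat 6KAH98 was low in Dsp (2.43) and the AKO rat 4KAH27 in Fibcd1 (79.5).

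Among the means of the context lists, on the log2(normalized count + 1) scale, 10RT43 was low in CA1 genes (6.31), CA3 genes (7.88), neocortical genes (6.84) and genes of caudal ganglionic eminence interneurons (5.64), and high in cerebellar genes (13.14) and choroid plexus genes (5.03). The rat 10RT46 was low in neocortical genes (9.18) and high in pineal genes (10.28) and choroid plexus genes (9.09). The rat 12RT23 was high in cerebellar genes (9.84) and in the granule cell genes (8.78). The rat 6KAH98 was low in neocortical genes (9.20), 6AKO35 was high in CA2 genes (9.83), and 7AKO19 was high in choroid plexus genes (7.04).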

How the results depend on the processing

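In HIP vs. WT the count of markers at an unadjusted p-value under 0.05 was 1 and in AKO vs. WT 0 under every alternative run. In HIP vs. AKO it was 2, but 1 with all 30 rats in 1 fit, 1 without 10RT43 and 10RT46, 0 without 10RT43, 10RT46 and 12RT23 (chosen after seeing the data, as was the olfactory bulb covariate), and 1 to 2 when each rat was left out. Pairs of markers with related levels numbered 2, and 4 with values centred on the group means. The causes were not tested. Signs turned only for differences within the spread between rats. Without 10RT43 and 10RT46 the log2 fold changes in HIP vs. WT became -0.46 for C1ql2, -0.082 for Wfs1, -0.21 for Fibcd1 and 0.076 for Calb1, and that of Calb1 in HIP vs. AKO 0.11. With 12RT23 also left out they were -0.50 for C1ql2, -0.14 for Wfs1, -0.21 for Fibcd1, -0.16 for Zbtb20 and, in HIP vs. AKO, 0.017 for Calb1. With quantile normalization Zbtb20 was at -0.036 in HIP vs. WT and -0.0024 in AKO vs. WT. Leaving out each rat in turn gave, in HIP vs. WT, -0.021 to 0.34 for Prox1, -0.30 to 0.34 for C1ql2, -0.21 to 0.13 for Dsp, -0.020 to 0.39 for Wfs1, -0.033 to 0.75 for Fibcd1 and -0.16 to 0.13 for Zbtb20. In AKO vs. WT it gave -0.46 to 0.0041 for Dsp, -0.0094 to 0.10 for Neurod6 and -0.088 to 0.17 for Zbtb20. In HIP vs. AKO it gave -0.049 to 0.42 for Dsp, -0.29 to 0.050 for Fibcd1, -0.21 to 0.094 for Zbtb20 and -0.10 to 0.11 for Calb1. No paired analysis was possible because the numbers of the rats within a group only follow the order of the records. The depth of 12.9 to 23.6 M reads limits Dsp and C1ql2, with as few as 2 and 6 reads per rat, and Fibcd1 in 10RT43, with 2.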

Other observations

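Calb1 fell as the mean of 4 CA2 genes (Rgs14, Amigo2, Cacng5 and Pcp4) rose across the 30 rats (r = -0.68, permutation p = 5.0e-05, adjusted p = 0.0020 over 120 relations, rho = -0.67, permutation p = 8.0e-05, adjusted p = 0.0027). It was -0.51 without the 2 rats farthest from the median, and -0.86 in WT, -0.43 in HIP and -0.75 in AKO rats. The 4 genes did not move as 1: Pcp4 was at its highest in 10RT43, as was Calb1. Amigo2 ran from 0.22 to 207 normalized counts, so values near 0 weigh on the mean. C1ql2 rose with the same 4 genes (r = 0.60, adjusted p = 0.012, rho = 0.70, adjusted p = 0.0027, both from permutations), and r was 0.78 without 10RT43 and 10RT46. The CA2 list itself moved with the olfactory bulb list: its mean was 8.72 to 9.83 in the 10 rats above the gap of the bulb list and 6.78 to 9.05 in the 20 below it, and the part of bulb tissue in these relations was not tested. On each side of the gap, in an alternative added after the values were seen, r of Calb1 with the CA2 genes was -0.64 below it (permutation p = 0.011, adjusted p = 0.061) and -0.55 above it (permutation p = 0.098, adjusted p = 0.15), and -0.29 below it without 10RT43 and 10RT46 (permutation p = 0.21). For C1ql2 it was 0.33 below (permutation p = 0.14, adjusted p = 0.17) and 0.71 above (permutation p = 0.020, adjusted p = 0.061), with rho of 0.53 and 0.81 (permutation p = 0.018 and 0.0073, adjusted p = 0.041 for both over 6 relations). Cacng5, a subunit that accompanies AMPA receptors, was at its lowest of the 30 rats in 10RT46, at 104.7 normalized counts, the rat where C1ql2 was at its highest. It was picked out after the values were seen. Counted from the highest of the 30 rats, 10RT46 ranked 7 in Amigo2, 22 in Rgs14 and 26 in Pcp4. Zbtb20 rose with the mean of 4 CA3 genes (r = 0.48, adjusted p = 0.034, rho = 0.50, adjusted p = 0.052, both from permutations), and r was 0.61 without 10RT43 and 10RT46.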
